A study of Homo sapiens with 8 samples.

Results

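The 10 genes described here encode cadherins and the proteins that couple them to the cell's interior and to one another at the adherens junction. They were taken by symbol from the 58206 genes of the count table. They are the cadherins CDH1, CDH2, CDH3, CDH6 and CDH17, the catenins CTNNA1, CTNND1 and JUP, the adhesion receptor NECTIN2 and its cytoplasmic partner AFDN. RNA was sequenced from Alexander1 cells, an established epithelial line from a human hepatocellular carcinoma (HCC), with 4 libraries of the parental line and 4 of a stable derivative. Both come from this HCC line, in which the endogenous Axin1, a scaffold of the complex that destroys beta-catenin, lacks its GSK3-binding region, so that Wnt signalling is constitutively on. The parental libraries carry the genotype label wt (Axin1 -), and the derivative is labelled Axin1+ because a full-length Axin1 was introduced with a VSVG retrovirus and cells were selected with hygromycin B as clones. The number of clones behind the 4 libraries is not given in the sources used here, and nothing states that the libraries of a label came from separate cultures, so p-values measure only the spread between these libraries, which may be technical.

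Classical cadherins bind the same cadherin on a neighbouring cell through calcium-dependent outer domains. Their tails bind beta-catenin or its close relative plakoglobin, which recruit alpha-catenin and through it actin, while p120-catenin binds nearer the membrane and keeps the cadherin at the surface. Nectins form a second, calcium-independent adhesion system at the same junction and are tied to actin by afadin. Hepatocytes carry both E-cadherin and N-cadherin, and the beta-catenin of the junction is the same protein that canonical Wnt signalling sends to the nucleus.

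Total counts ranged from 11232951 to 15263761 in the parental libraries and from 12372436 to 26400782 in those labelled Axin1+. A count of 3 corresponded to between 0.108 and 0.267 CPM (counts scaled to a fixed library total, on library totals scaled by TMM factors). On the first principal component of log2 CPM (55.9% of the variance) the labels separated, although Axin1+ replicate 1 lay at 22.2 and the other Axin1+ libraries between 48.7 and 56.8. On the second (21.0%) parental replicate 1 lay at 61.5 and the other libraries between -30.3 and 25.0. AXIN1 mRNA was measured at 55.3, 52.8, 47.4 and 54.2 CPM over parental libraries 1 to 4, and at 47.6, 48.0, 48.2 and 37.7 CPM over Axin1+ libraries 1 to 4. Its mRNA was no higher under the Axin1+ label (log2 difference -0.21, SE 0.12, edgeR adjusted p = 0.267), and whether reads of the introduced copy are counted under this gene is not given in the sources used here. Directions below rest on the labels. All 9 hepatocyte markers stood at 1 CPM or more, and their summed level was 20351 to 24791 CPM in parental and 15065 to 18944 CPM in Axin1+ libraries. Of the markers of other cells, 4 of 5 cholangiocyte genes (all but EPCAM) reached 1 CPM and summed to 24.2 to 57.9 CPM against 25.6 to 79.6 CPM. For endothelial cells 1 of 5 did, PECAM1, with list sums of 4.58 to 6.95 CPM against 34.1 to 58.6 CPM. For fibroblasts 1 of 6 did, COL1A1 (sums 2.71 to 3.22 CPM against 1.23 to 4.59 CPM), and for immune cells 1 of 5, LYZ (sums 422 to 949 CPM against 672 to 920 CPM), with CD3E at 0 in all 8 libraries. The part of these differences in the results below was not tested.

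Of the 10 genes, 8 passed the filter on low counts and were tested among 14289 genes by edgeR's quasi-likelihood test, with Benjamini-Hochberg adjustment and a threshold of 0.05. CDH1, JUP, CTNNA1 and NECTIN2, 4 of the 8, were higher in the Axin1+ libraries. CDH17, CTNND1 and AFDN did not pass the test, and neither did CDH2, whose mean was lower. The background is high in this comparison: 19.2% of all tested genes were called, 10.4% as higher and 8.77% as lower. The 4 called genes were those whose 4 Axin1+ values lay above all 4 parental values, and 23.9% of all tested genes had groups that did not overlap in either direction. No gene of the group was called lower by edgeR, DESeq2 or limma-voom. At an unadjusted p under 0.05 edgeR placed 4 higher and 1 lower, where 4786 of all 14289 tested genes passed in either direction. The median log2 difference of the 8 was 0.38, against 0.00 over all tested genes.

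**Figure D1:**
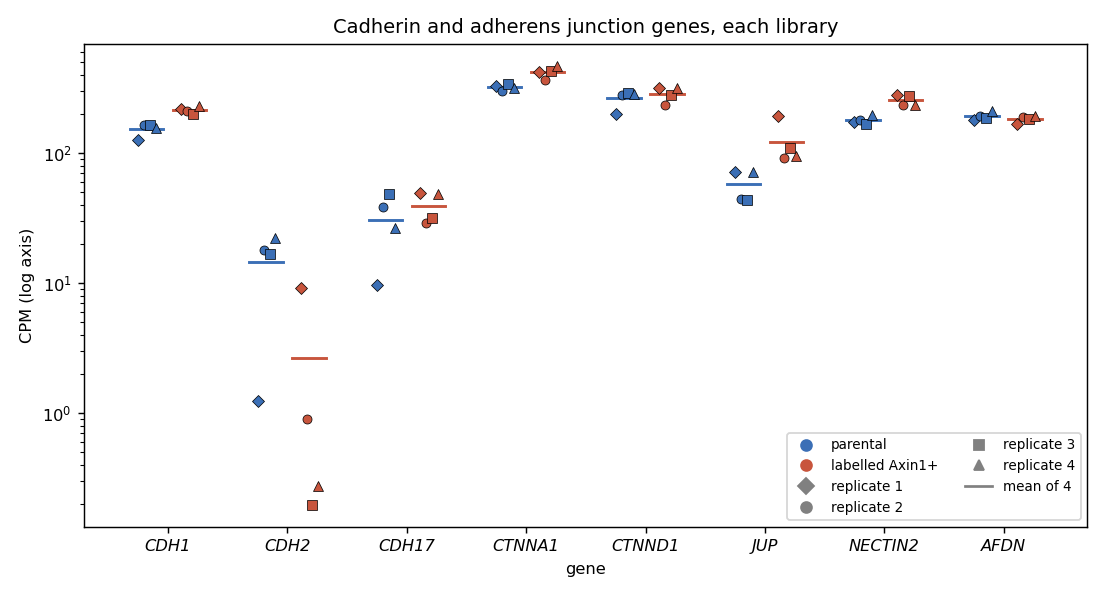
Expression of the 8 tested genes in each library, in CPM on a log axis; each symbol is 1 library (shape, replicate number), blue parental and red labelled Axin1+, and bars are means of 4. CDH1, CTNNA1, JUP and NECTIN2 have no overlap between labels, whereas CDH2 spans from 0.197 to 22.3 CPM with replicate 1 of each label displaced toward the other label.

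CDH1 (E-cadherin, the epithelial cadherin; ENSG00000039068, chromosome 16, 68737225 to 68835548, plus strand, GENCODE 29 on GRCh38) was higher in the libraries labelled Axin1+. Parental libraries 1 to 4 held 125, 162, 164 and 155 CPM, and Axin1+ libraries 1 to 4 held 218, 211, 198 and 230 CPM. The lowest Axin1+ value lay above the highest parental one, and the lowest parental value was that of replicate 1. Means were 152 ± 18.0 and 214 ± 13.0 CPM (SD, n = 4 each), a log2 difference of 0.50 (SE 0.12, 95% interval 0.23 to 0.77) or 1.41-fold, with an edgeR adjusted p of 0.0181 and a two-sided exact permutation p of 0.0286, the smallest that 70 labelings allow. Without Axin1+ replicate 4 the log2 difference was 0.47 and the call was lost (adjusted p = 0.0594).

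CDH2 (N-cadherin, which hepatocytes express beside E-cadherin and which epithelial tumour cells gain when they take on mesenchymal traits; ENSG00000170558, chromosome 18, 27950966 to 28177446, minus strand) was the most variable of the 8. Parental libraries 1 to 4 held 1.25, 17.8, 16.7 and 22.3 CPM, and Axin1+ libraries 1 to 4 held 9.22, 0.908, 0.197 and 0.273 CPM. Parental replicates 2 to 4 stood together above all other libraries, Axin1+ replicates 2 to 4 held 11, 4 and 7 counts, and replicate 1 of each label lay between, with the Axin1+ one above the parental one. Means were 14.5 ± 9.16 and 2.65 ± 4.39 CPM (SD, n = 4 each), and with all 8 libraries the log2 difference of -2.39 did not pass the test (SE 1.03, 95% interval -4.66 to -0.12, edgeR adjusted p = 0.131, exact permutation p = 0.0571). Without Axin1+ replicate 1 the log2 difference was -5.16 (SE 0.92, edgeR adjusted p = 0.0039), without parental replicate 1 it was -2.75 (adjusted p = 0.0360), and without both, a choice made after seeing the data, it was -5.57 (SE 0.35, adjusted p = 1.3e-07). CDH2 passed the filter on low counts through the parental libraries, where its mean was higher, so these calls are no support beyond the values. In bulk RNA, fewer cells with a transcript and less of it per cell cannot be told apart.

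CDH17 (liver-intestine cadherin, whose short tail binds no catenin; ENSG00000079112, chromosome 8, 94127171 to 94217303, minus strand) was measured at 9.70, 38.1, 48.1 and 26.5 CPM over parental libraries 1 to 4, and at 49.1, 28.7, 31.8 and 48.0 CPM over Axin1+ libraries 1 to 4. Apart from the low parental replicate 1, the libraries of both labels covered the same range. The log2 difference was 0.37 (SE 0.38, 95% interval -0.47 to 1.20, edgeR adjusted p = 0.533), and it was -0.04 without replicate 1 of each label. CDH3 (P-cadherin of basal epithelia; chromosome 16, 68636189 to 68722616, plus strand) had at most 4 counts in a library and CDH6 (K-cadherin of kidney; chromosome 5, 31193750 to 31329146, plus strand) had 0 in all 8, so neither was tested. A count of 0 allows up to the 3-count level of each library given above, and covers counting error only.

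To compare levels between cadherins, CPM were divided by the length of all exons of a gene in kilobases, and each of 27 cadherins was expressed as a share of their sum in its library. CDH1 took 57.0 ± 3.54% of this sum in parental and 55.9 ± 1.85% in Axin1+ libraries (SD, n = 4 each). It was the most abundant of these 27 in every library, with 53.9% to 62.0%. CDH17 took 17.2 ± 7.51% and 16.2 ± 4.18%. The share of CDH2 was 0.77%, 7.54%, 6.90% and 10.2% in parental replicates 1 to 4 and 3.08%, 0.29%, 0.07% and 0.08% in Axin1+ replicates 1 to 4. CDHR2, a protocadherin-like protein of the brush border, took 9.51 ± 4.96% and 19.5 ± 7.89%. These shares are descriptions of per-length levels and were not tested, and the counts per kb of CDH1 to CDH2 ranged from 5.58 to 80.4 in parental and from 18.9 to 807 in Axin1+ libraries.

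**Figure D2:**
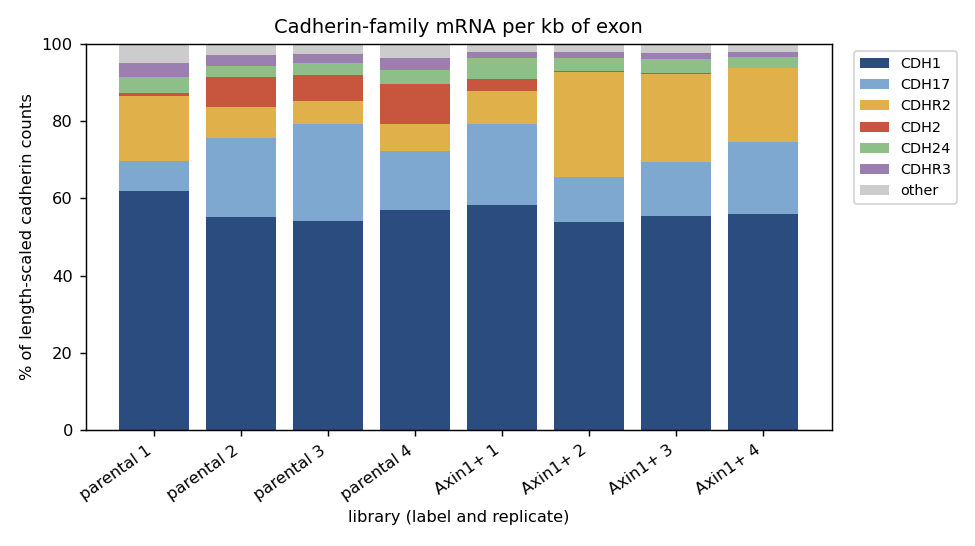
Share of each cadherin in the summed counts per kb of exon of 27 cadherins, in percent, one bar per library; the grey segment holds all others. CDH1 takes between 53.9% and 62.0% of every bar, and CDH2 takes 6.90% to 10.2% in parental replicates 2 to 4 and at most 3.08% in the other bars.

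Among the catenins, JUP (plakoglobin, which can take the place of beta-catenin on the cadherin tail and also serves desmosomes; ENSG00000173801, chromosome 17, 41754604 to 41786931, minus strand) was higher in the Axin1+ libraries. Parental libraries 1 to 4 held 71.7, 44.4, 43.6 and 71.9 CPM, and Axin1+ libraries 1 to 4 held 191, 91.6, 109 and 93.9 CPM. All Axin1+ values lay above all parental values, and Axin1+ replicate 1 was the highest of the 8. Means were 57.9 ± 16.1 and 121 ± 46.9 CPM (SD, n = 4 each), a log2 difference of 1.07 (SE 0.26, 95% interval 0.49 to 1.65) or 2.10-fold (edgeR adjusted p = 0.0180, exact permutation p = 0.0286). The log2 difference was 0.76 without Axin1+ replicate 1, where the call remained, and the call was lost without parental replicate 2 (0.96, adjusted p = 0.0605).

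CTNNA1 (alpha-catenin, the link from the cadherin complex to actin; ENSG00000044115, chromosome 5, 138610967 to 138935034, plus strand) was measured at 329, 299, 340 and 313 CPM over parental libraries 1 to 4, and at 418, 364, 428 and 466 CPM over Axin1+ libraries 1 to 4. The groups did not overlap, and means were 320 ± 18.2 and 419 ± 42.1 CPM (SD, n = 4 each). The log2 difference of 0.39 (SE 0.12, 95% interval 0.12 to 0.66, 1.31-fold) was just past the threshold (edgeR adjusted p = 0.0461, exact permutation p = 0.0286). The call was lost without Axin1+ replicate 1, 3 or 4 (adjusted p = 0.0607, 0.115 and 0.135) and likewise on removal of parental replicate 2, 3 or 4 (adjusted p = 0.143, 0.0753 and 0.0920), and it ended also with DESeq2 size factors (0.0502), upper-quartile factors (0.0513) and no expression filter (0.0855).

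CTNND1 (p120-catenin, which holds cadherins at the membrane; ENSG00000198561, chromosome 11, 57753243 to 57819546, plus strand) was measured at 200, 280, 289 and 286 CPM over parental libraries 1 to 4, and at 315, 234, 277 and 313 CPM over Axin1+ libraries 1 to 4. The groups overlapped, with parental replicate 1 the lowest library. The log2 difference was 0.11 (SE 0.15, 95% interval -0.23 to 0.45, edgeR adjusted p = 0.656), and -0.0029 without parental replicate 1. Counts per kb of CTNND1 relative to CDH1 were 1.13 to 1.29 in parental and 0.78 to 1.01 in Axin1+ libraries, so these ranges did not overlap. The same ratio of CTNNA1 to CDH1 did overlap, at 1.29 to 1.84 and 1.21 to 1.51, and so did that of JUP to CDH1, at 0.33 to 0.72 and 0.51 to 1.09. CDH1 alone already had no overlap between labels, and the ratios were not tested.

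**Figure D3:**
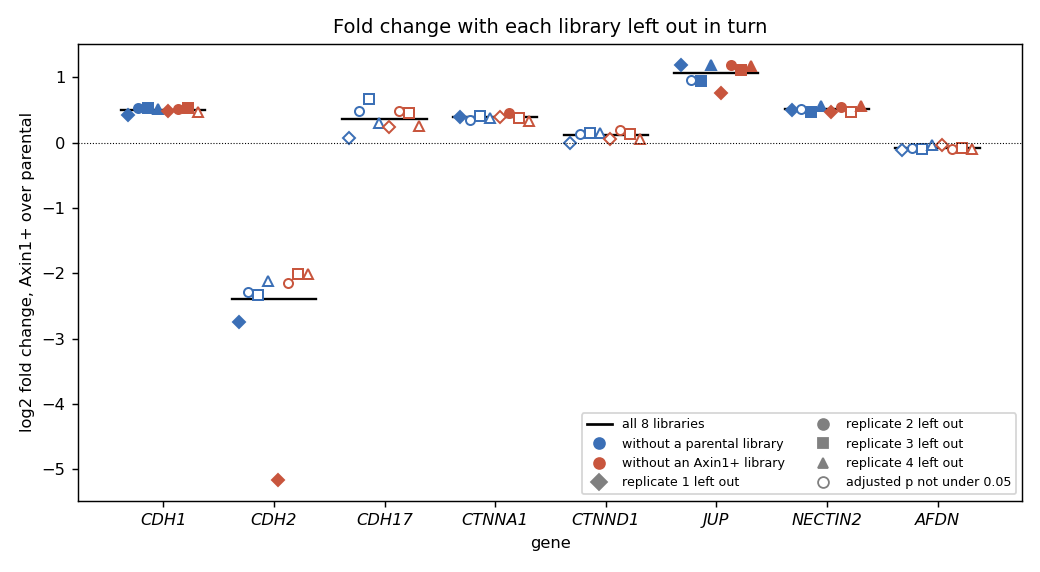
Log2 fold change of each tested gene (Axin1+ over parental) with 1 library left out at a time; bars mark the value with all 8 libraries, colour the label and shape the replicate number left out, and open symbols an edgeR adjusted p not under 0.05. Most values stay near their bar, while CDH2 moves from -2.39 to -5.16 without Axin1+ replicate 1.

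In the nectin system, NECTIN2 (a nectin that also is a ligand of receptors on lymphocytes; ENSG00000130202, chromosome 19, 44846175 to 44889228, plus strand) was higher in the Axin1+ libraries. Parental libraries 1 to 4 held 174, 180, 167 and 195 CPM, and Axin1+ libraries 1 to 4 held 280, 235, 274 and 232 CPM. No Axin1+ value fell within the parental range, and means were 179 ± 12.1 and 255 ± 25.3 CPM (SD, n = 4 each). The log2 difference of 0.51 (SE 0.12, 95% interval 0.25 to 0.77, 1.42-fold) had the smallest adjusted p of the group (edgeR, 0.0144; exact permutation p = 0.0286). Leaving out Axin1+ replicate 3 (adjusted p = 0.0509) or parental replicate 2 (0.0504) ended the call.

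AFDN (afadin, which ties nectins to actin; ENSG00000130396, chromosome 6, 167826922 to 167972023, plus strand) was measured at 178, 193, 186 and 212 CPM over parental libraries 1 to 4, and at 167, 188, 182 and 191 CPM over Axin1+ libraries 1 to 4. The groups overlapped and the log2 difference was -0.08 (SE 0.11, edgeR adjusted p = 0.648). Its 95% interval, -0.32 to 0.16, lay below that of NECTIN2. Counts per kb of NECTIN2 relative to AFDN were 3.28 to 3.58 in parental and 4.46 to 6.15 in Axin1+ libraries, without overlap. NECTIN2 alone already had no overlap between labels, and the ratio was not tested.

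**Figure D4:**
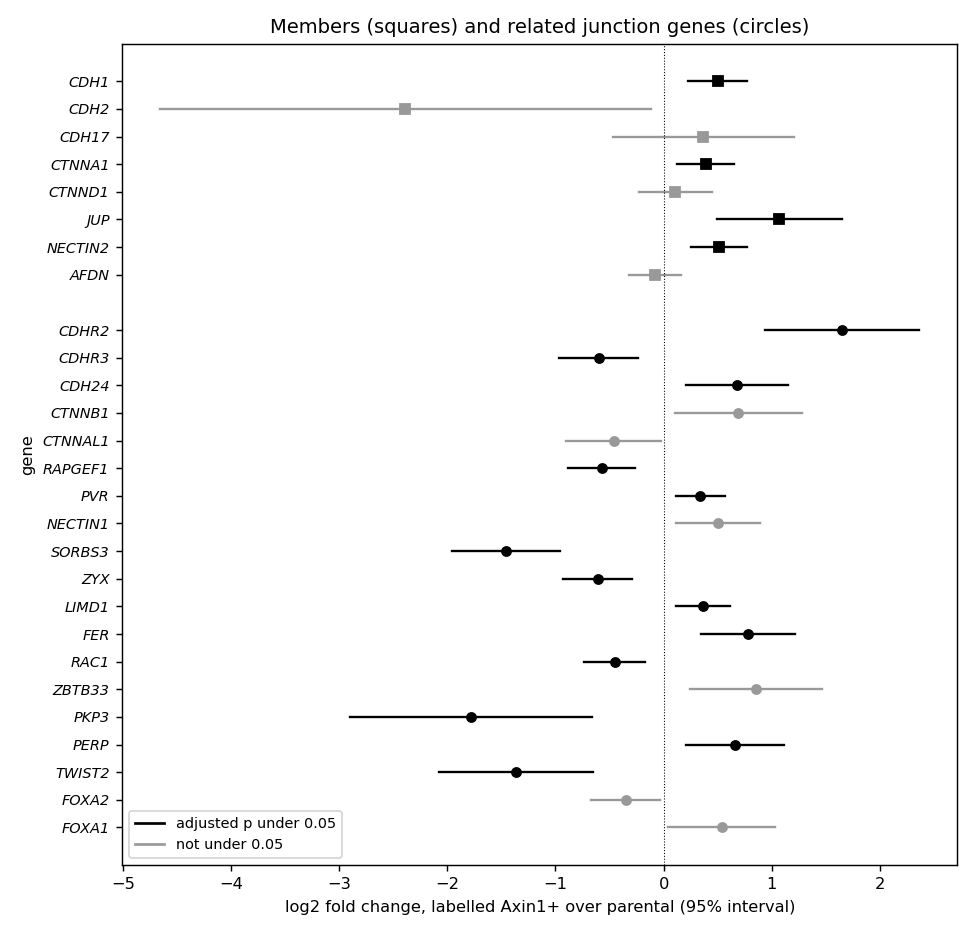
Log2 fold change (Axin1+ over parental) with its 95% interval from edgeR. Squares are the 8 tested genes of the group. Circles are the list genes chosen by p-value and named in the text, other than DSG2. Black marks an adjusted p under 0.05. The interval of CDH2, from -4.66 to -0.12, is the widest of all genes drawn.

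By level per kb of exon, the order in the parental libraries was NECTIN2 (47.8 CPM per kb), CTNNA1 (36.3), CTNND1 (30.0), CDH1 (24.5), AFDN (14.0), JUP (11.7), CDH17 (7.84), CDH2 (2.93), CDH3 (0.020) and CDH6 (0). The ranges over 4 libraries overlapped for the neighbours CTNND1 and CDH1, AFDN and JUP, JUP and CDH17, and CDH17 and CDH2. Overlapping ranges do not compare genes within a library. In every parental library CTNND1 stood above CDH1 (ratio 1.13 to 1.29) and CDH17 above CDH2. In the Axin1+ libraries the order was NECTIN2 (68.1 CPM per kb), CTNNA1 (47.5), CDH1 (34.7), CTNND1 (32.4), JUP (24.6), AFDN (13.3), CDH17 (10.1), CDH2 (0.54), CDH3 (0.006) and CDH6 (0). There the neighbours CDH1 and CTNND1, CTNND1 and JUP, and AFDN and CDH17 overlapped. With the longest transcript as the length, CTNNA1 came before NECTIN2 in both groups, at 83.6 and 72.6 CPM per kb in the parental libraries with overlapping ranges. Under both lengths JUP stood below AFDN in the parental mean and above it in the Axin1+ mean.

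Because the levels of whole chromosome segments can differ between sublines, each gene was set beside the 40 nearest tested genes on its chromosome. CTNNA1 lay among genes that were themselves higher, with a neighbour median log2 difference of 0.43, close to its own 0.39, and with 15 of 40 called higher and 0 lower (edgeR, adjusted p under 0.05). The median of the 597 tested genes of chromosome 5 was 0.40. Around JUP the median was 0.33, with 12 of 40 higher and 1 lower, against 1.07 for JUP itself. CDH1 (neighbour median -0.07) and NECTIN2 (0.03) were 0.57 and 0.48 above their neighbours. CDH2 had neighbours at 0.11, CDH17 at 0.28, CTNND1 at -0.16 and AFDN at 0.14. With 20 neighbours the medians were 0.62 for CTNNA1, 0.51 for JUP, 0.26 for CDH2 and -0.08 for CTNND1. The part of such segments in each gene's difference was not tested.

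**Figure D5:**
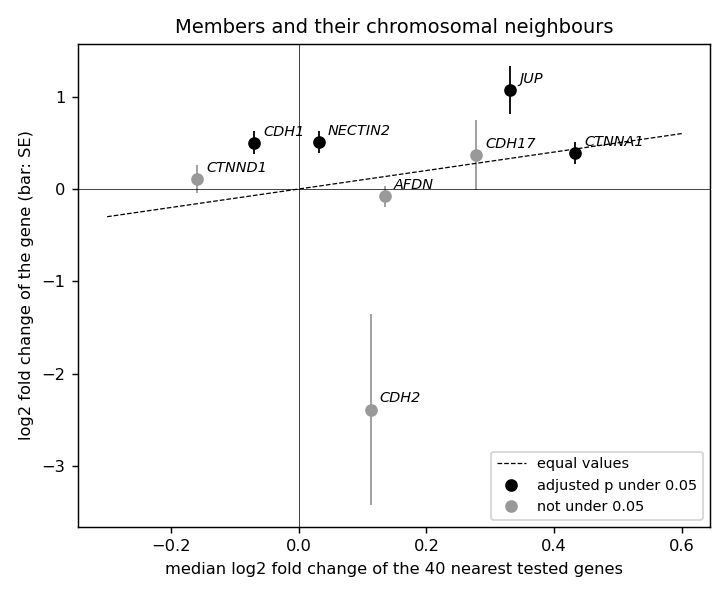
Log2 fold change of each tested gene (vertical, bar is the SE) against the median of its 40 nearest tested genes (horizontal); the dashed line marks equal values and black an edgeR adjusted p under 0.05. CTNNA1 lies on the line, and CDH1, NECTIN2 and JUP lie above it.

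Around these genes, 105 further genes in 7 lists (other cadherins, other catenins, nectin partners, actin linkers, turnover and signalling, desmosome, and transcription regulators of CDH1) gave 69 tested genes. Of these 7 were called higher and 7 lower, or 20.3%, near the 19.2% of all tested genes, and the median log2 difference was -0.02. Neighbour medians (40 genes each) were 0.29 (CDHR2), 0.15 (CDH24), 0.24 (PVR), 0.15 (LIMD1), 0.59 (FER), 0.17 (DSG2) and 0.26 (PERP) for the 7 higher. They were -0.05 (CDHR3), -0.18 (RAPGEF1), -0.26 (SORBS3), -0.05 (ZYX), -0.27 (RAC1), -0.11 (PKP3) and -0.26 (TWIST2) for the 7 lower. The part of neighbouring segments in these differences was not tested. Of 22 other cadherins 6 were tested, with 2 higher, 1 lower and a median of 0.21. Of 7 other catenins and p120 relatives 4 were tested (median -0.30) and none was called by edgeR, DESeq2 or limma-voom. At an unadjusted p under 0.05 edgeR placed 1 higher and 2 lower, beside 4786 of all 14289 tested genes.

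CDHR2, a brush-border cadherin, had the largest difference of the other cadherins. Parental libraries 1 to 4 held 29.4, 20.9, 15.7 and 16.6 CPM, and Axin1+ libraries 1 to 4 held 28.2, 92.0, 71.4 and 68.6 CPM. Axin1+ replicate 1 lay within the parental range and the other Axin1+ libraries above it. The log2 difference was 1.65 (SE 0.32, edgeR adjusted p = 0.0063), and its exons overlap those of GPRIN1 on the opposite strand, which cannot be told apart where counting ignores strand. CDH24 rose from 5.58 to 8.91 CPM (log2 difference 0.68, adjusted p = 0.0472), a call lost without any 1 of the 8 libraries (adjusted p between 0.0551 and 0.114), without replicate 1 of both labels (0.0928), with limma-voom (0.0609) and with no expression filter (0.0572). CDHR3 fell from 9.13 to 6.03 CPM (log2 difference -0.60, adjusted p = 0.0293), a call lost without Axin1+ replicate 3 or 4 or parental replicate 2, 3 or 4 (adjusted p up to 0.0903), with total counts only (0.0616) and with no expression filter (0.125).

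CTNNB1, which encodes beta-catenin itself, was measured at 96.8, 167, 215 and 221 CPM over parental libraries 1 to 4, and at 340, 177, 291 and 321 CPM over Axin1+ libraries 1 to 4. The groups overlapped through Axin1+ replicate 2, and the log2 difference of 0.69 (SE 0.27) did not pass the test (edgeR adjusted p = 0.0927), although it did without Axin1+ replicate 2 (adjusted p = 0.0433) and with no expression filter (0.0079). Counts per kb of JUP relative to CTNNB1 overlapped, at 0.49 to 1.79 in parental and 0.71 to 1.35 in Axin1+ libraries. These ratios use the length of all exons, 4942 bases for JUP and 11927 for CTNNB1. The longest transcripts have 3497 and 4888 bases, so which of the 2 genes stands higher depends on the length used. The alpha-catenin-like CTNNAL1 had a log2 difference of -0.46 that did not pass the test (edgeR adjusted p = 0.133; 0.0117 without parental replicate 1, 0.00098 without replicate 1 of both labels).

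Of 10 genes of the nectin system 8 were tested, with 1 higher, 1 lower and a median log2 difference of -0.21. The share called over all tested genes was 19.2%. PVR, a nectin-like receptor encoded near NECTIN2 on chromosome 19, rose from 74.3 to 93.9 CPM (log2 difference 0.34, SE 0.10, edgeR adjusted p = 0.0422). Part of its exons overlaps CEACAM19, and the call was kept without Axin1+ replicate 1 but lost without any 1 of the other 7 libraries (adjusted p up to 0.120) and with no expression filter (0.136). RAPGEF1, an activator of the small GTPase Rap1, fell from 94.6 to 63.6 CPM (log2 difference -0.57, adjusted p = 0.0180), a call lost without Axin1+ replicate 3 or 4 (adjusted p up to 0.0586) and with total counts only (0.0593). NECTIN1 had a log2 difference of 0.50 that did not pass the test (adjusted p = 0.0715), and did without Axin1+ replicate 1 or parental replicate 4 (lowest adjusted p 0.0402), without replicate 1 of both labels (0.0332) and with the DESeq2 Wald test (0.0498).

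All 17 actin linkers were tested, with 1 higher, 2 lower and a median of -0.04, beside 19.2% of all tested genes called. SORBS3 (vinexin, a partner of vinculin) was measured at 75.7, 43.9, 42.4 and 41.6 CPM over parental libraries 1 to 4, and at 22.1, 17.9, 20.4 and 13.5 CPM over Axin1+ libraries 1 to 4. It was lower in every Axin1+ library, with a log2 difference of -1.46 (SE 0.23, edgeR adjusted p = 0.0018), and kept its call with each library left out. ZYX (zyxin, found where actin is under tension) fell from 202 to 132 CPM (log2 difference -0.61, adjusted p = 0.0156), a call lost without Axin1+ replicate 3 or 4 (adjusted p up to 0.0554). LIMD1, a protein of the zyxin family, rose from 118 to 152 CPM (log2 difference 0.36, adjusted p = 0.0435), a call lost without Axin1+ replicate 1, 3 or 4 or parental replicate 2, 3 or 4 (adjusted p up to 0.125), without replicate 1 of both labels (0.0604) and with no expression filter (0.0977).

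All 19 genes of cadherin turnover and signalling were tested, with 1 higher, 1 lower and a median of 0.18, beside 19.2% of all tested genes called. FER, a kinase bound to p120-catenin, rose from 6.44 to 11.0 CPM (log2 difference 0.78, SE 0.20, edgeR adjusted p = 0.0203). That call was lost without Axin1+ replicate 3 or 4 or parental replicate 2 (adjusted p up to 0.0700), and the 40 genes nearest FER on chromosome 5 had a median of 0.59. RAC1, a small GTPase of actin protrusion, fell from 551 to 403 CPM (log2 difference -0.45, adjusted p = 0.0327), a call lost without Axin1+ replicate 1, 3 or 4 or parental replicate 2 (adjusted p up to 0.104) and with no expression filter (0.0803). The 40 genes nearest RAC1 on chromosome 7 had a median of -0.27, with 11 called lower and 0 higher. ZBTB33 (Kaiso, a transcription factor that binds p120-catenin) had a log2 difference of 0.86 that did not pass the test (adjusted p = 0.0522), and did with upper-quartile factors (0.0495), limma-voom (0.0455), the DESeq2 Wald test (0.0196), no expression filter (0.0079) and without replicate 1 of both labels (0.0226).

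Desmosomes are the neighbouring junctions that share plakoglobin with adherens junctions, and 5 of their 12 genes were tested. Of these 2 were called higher and 1 lower, where 19.2% of all tested genes were called in either direction. DSG2, the desmoglein of simple epithelia, had 1, 3, 0 and 3 counts in parental replicates 1 to 4 and stood at 10.9, 5.37, 3.79 and 4.96 CPM in Axin1+ replicates 1 to 4. The Axin1+ mean of 6.25 CPM was 26.2-fold the mean level of 3 counts in the parental libraries (0.238 CPM). That is a ratio of means in which Axin1+ replicate 1 was the highest value, and not a lower limit. DSG2 passed the filter on low counts only through the Axin1+ libraries, so its call among the 2 is no support beyond these values. PERP, a membrane protein of desmosomes, rose from 343 to 543 CPM (log2 difference 0.66, adjusted p = 0.0457), a call that was kept without parental replicate 1 and lost without any 1 of the other 7 libraries (adjusted p up to 0.131) and with total counts only (0.0510). PKP3 (plakophilin 3) fell from 2.49 to 0.727 CPM (log2 difference -1.78, adjusted p = 0.0325), a call lost without Axin1+ replicate 3 or 4 or parental replicate 2, 3 or 4 (adjusted p up to 0.0992). It held 32, 42, 22 and 32 counts in parental and 37, 13, 4 and 8 counts in Axin1+ replicates 1 to 4. PKP3 passed the filter through the parental libraries, where its mean was higher, so its call is no support beyond these values. DSP and PKP2 were not called, and the remaining desmogleins and desmocollins and PKP1 had at most 1 count in a library.

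CDH1 is repressed by factors that bind E-box letters, among them the SNAI, ZEB and TWIST families, and is sustained by factors such as GRHL and FOXA. Of 18 such regulators 10 were tested, none was higher by edgeR, DESeq2 or limma-voom, 1 was lower and the median log2 difference was -0.11. Over all tested genes edgeR called 10.4% higher and 8.77% lower. At an unadjusted p under 0.05 edgeR placed 2 higher and 3 lower, beside 4786 of all 14289 tested genes. TWIST2 was measured at 4.45, 4.94, 5.17 and 7.94 CPM over parental libraries 1 to 4, and at 2.33, 0.991, 2.76 and 2.50 CPM over Axin1+ libraries 1 to 4. Its Axin1+ values all lay below the parental ones (log2 difference -1.37, SE 0.32, edgeR adjusted p = 0.0154), and the call was kept with each library left out. FOXA2 (log2 difference -0.35, adjusted p = 0.115) and FOXA1 (0.54, adjusted p = 0.122) did not pass the test, nor did SNAI1 (-0.85, adjusted p = 0.126) or ZEB1 (-0.10, adjusted p = 0.780). GRHL1 (log2 difference -0.71, edgeR adjusted p = 0.167) and OVOL2 (0.96, adjusted p = 0.143) were tested and did not pass either. SNAI2, GRHL2, GRHL3 and OVOL1 had at most 2 counts in any library.

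Promoters are shown for the receptor that was higher (NECTIN2), its partner that was not (AFDN), the alpha-catenin gene CTNNA1 and DSG2, to set the letters those factors bind beside the measured levels. Windows are the 250 bases before a RefSeq start on GRCh38.p14, read 5′ to 3′ on the plus strand, and each is printed only up to the next GENCODE 29 exon of its gene. The printed parts for NECTIN2 and DSG2 end just before the annotated gene, and their windows run on into it. The windows of AFDN and CTNNA1 lie inside the gene, at starts downstream of its first exon. RefSeq windows were matched for 5 of the 10 genes (CDH2, CTNNA1, JUP, AFDN and NECTIN2). Capitals mark the E-box letters CACCTG, or CAGGTG on the other strand, which stand in 17.5% of all 35116 windows of this length. AFDN held 4 of them, a number reached by 43 windows (0.122%), and no other of the 5 genes held any. The DSG2 window held 2, of which 1 lies in the printed part. Matches are counted over whole windows, and those of CDH2 and JUP had only 0 and 30 bases upstream of the next exon. The TCF/LEF letters CTTTGA, or TCAAAG on the other strand, stand in 11.2% of all windows and in 0 of the 5. These are matches of letters only.
AFDN, chr6:167827385-167827634 (at a start inside the gene): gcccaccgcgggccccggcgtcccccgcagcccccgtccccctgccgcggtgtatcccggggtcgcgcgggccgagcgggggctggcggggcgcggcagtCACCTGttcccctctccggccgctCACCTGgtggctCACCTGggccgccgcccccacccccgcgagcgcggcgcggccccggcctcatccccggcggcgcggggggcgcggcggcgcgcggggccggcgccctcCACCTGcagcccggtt
NECTIN2, chr19:44846047-44846174: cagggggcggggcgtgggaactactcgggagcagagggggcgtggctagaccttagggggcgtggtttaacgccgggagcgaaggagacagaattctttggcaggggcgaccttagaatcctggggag
CTNNA1, chr5:138753175-138753417 (at a start inside the gene): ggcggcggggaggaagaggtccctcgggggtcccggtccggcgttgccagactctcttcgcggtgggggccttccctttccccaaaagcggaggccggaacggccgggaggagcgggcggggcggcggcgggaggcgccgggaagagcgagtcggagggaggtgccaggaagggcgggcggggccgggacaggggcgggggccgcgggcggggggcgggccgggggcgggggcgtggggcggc
DSG2, chr18:31497927-31498042: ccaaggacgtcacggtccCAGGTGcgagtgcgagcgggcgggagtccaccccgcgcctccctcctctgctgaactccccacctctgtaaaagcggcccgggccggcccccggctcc

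Genes whose pattern over the 8 libraries was most like that of a cadherin were found by the root mean square difference of centred log2 CPM among 13554 genes with a mean of at least 1 CPM. For CDH1 they were DENND4C (0.050), ARPP19 (0.056) and BUB3 (0.057). For CDH17 they were GPR137C (0.18), AC023632.6 (0.21) and ZBTB6 (0.22). For CDH2 they were ZNF667-AS1 (0.89), SLC6A19 (0.91) and KIRREL1 (0.97). The measure is not scaled by a gene's own spread, which was largest for CDH2, so its values do not compare between cadherins. KIRREL1, which encodes an adhesion protein of the immunoglobulin family, was measured at 6.67, 15.2, 12.6 and 22.4 CPM over parental libraries 1 to 4, and at 8.54, 0.495, 0.542 and 0.781 CPM over Axin1+ libraries 1 to 4. As for CDH2, Axin1+ replicate 1 stood apart from the other Axin1+ libraries and parental replicate 1 was the lowest parental library. KIRREL1 was picked for its likeness to CDH2 over these same libraries, so the shared pattern follows from that choice and is no support for it.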

How the data were processed

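RNA from 4 parental and 4 Axin1+ samples of the Alexander1 line was sequenced from mRNA libraries, per the labels' protocols. Values are raw gene-level counts, deposited by the authors without normalization, as its whole numbers and unequal column totals show. Per the submitters' processing notes, bcl2fastq, fastp 0.23.1, STAR 2.7.4 and GRCh38 were used. The annotation and the use of strand in counting are not given in the sources used here. Columns were matched to samples by the names in the labels; columns of no sample numbered 0. Groups and replicate numbers come from the sample titles.

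Identifiers were matched to GENCODE 29 (57943 of 58206), which also gave coordinates, exons and lengths; its build is GRCh38 and its release may differ from the authors'. The test was that of edgeR 4.0.16 under R 4.3.3 (filterByExpr with minimum count 10 and minimum total 15, TMM, glmQLFit and glmQLFTest, no covariates, two-sided, Benjamini-Hochberg over 14289 genes). SEs are the absolute log2 difference over the square root of F. Exact permutation tests used log2 CPM with a prior count of 2. The tests were also tested on simulated data. TMM factors ranged from 0.897 to 1.06, and intervals and floors cover counting error and library spread only.

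Named genes are AXIN1, the 10 genes, the 3 smallest p-values of each list with every list gene past the threshold, and the 3 genes most like CDH1, CDH2 and CDH17. Of these, 1 list gene is not reported here. SNAI1, ZEB1, SNAI2, GRHL1, GRHL2, GRHL3, OVOL1, OVOL2, DSP, PKP2 and PKP1 were named after their values were seen. The genes and lists were chosen with earlier results of these data known. Alternatives were DESeq2 1.42.0 size factors and its Wald test, upper-quartile factors, unscaled totals, dropping the expression filter or replacing it by a mean of 1 CPM, voom in limma 3.58.1, a replicate block, a threshold of 0.01, each library left out, the longest transcript as gene length and 20 neighbours. Leaving out replicate 1 of both labels was added after seeing the data.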

Additional observations from a re-analysis of the deposited data

Results flagged for a closer look

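In 64 groups of 4 libraries (32 named genes, both labels), 6 had 1 library far from the other 3. Groups with no count above 3 are among the 64 but could not be flagged. Chance gives about 1 in 20 for independent, normally distributed values, whereas these groups share libraries. Parental replicate 1 stood apart in 4 of the 6. CTNND1 was at 200.4 CPM there and at 280 to 289 CPM in the other parental libraries. SORBS3 was at 75.7 CPM against 41.6 to 43.9 CPM, PERP at 202 CPM against 376 to 402 CPM, and FOXA1 at 10.6 CPM against 20.2 to 21.4 CPM. CDH2 was at 9.22 CPM in Axin1+ replicate 1 and at 0.197 to 0.908 CPM in the other Axin1+ libraries. AXIN1 was at 37.7 CPM in Axin1+ replicate 4 and at 47.6 to 48.2 CPM in the others.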

How the results depend on the processing

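Over all genes, 2738 were past the threshold (1485 higher, 1253 lower). Without replicate 1 of both labels there were 4623 (2380 and 2243), at an adjusted p under 0.01 964 (566 and 398), and with single libraries left out 1394 to 3523 (797 to 1918 and 597 to 1605), with 1531, 1394 and 1508 without Axin1+ replicate 3, Axin1+ replicate 4 and parental replicate 2. With total counts only the split was 1724 higher and 868 lower. The 4 genes called higher in the group became 1 to 4 with single libraries left out (1, CDH1, without parental replicate 2; 2 each without Axin1+ replicate 3 or 4) and 0 at an adjusted p under 0.01; the 0 called lower became 0 to 1 with single libraries left out, 1 without replicate 1 of both labels and 1 without an expression filter (CDH2, log2 difference -2.37, adjusted p = 0.00081). Without replicate 1 of both labels CDH17 moved to -0.044 and CTNND1 to -0.051, and with single libraries left out CTNND1 ranged from -0.0029 (without parental replicate 1) to 0.19. Of the list genes, the 7 called higher became 11 with the DESeq2 Wald test, 2 at an adjusted p under 0.01 and 2 to 7 with single libraries left out (2 each without Axin1+ replicate 3, Axin1+ replicate 4 or parental replicate 2, and 4 without parental replicate 4); the 7 lower became 21 without replicate 1 of both labels, 1 at an adjusted p under 0.01 and 2 to 14 with single libraries left out (2 each without Axin1+ replicate 3 or 4, 4 without parental replicate 2 and 14 without parental replicate 1). The cause of these changes was not tested.

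The replicate numbers were not shown to pair the libraries: deviations from the group means correlated at -0.06, 0.01, -0.03 and 0.23 for numbers 1 to 4, and parental replicate 1 correlated best with Axin1+ replicate 2 (0.45). With the replicate block 2033 genes were past the threshold, 1 gene of the group was called higher (JUP) and 3 list genes were. CDH1 was then at 0.51 (adjusted p = 0.0508), NECTIN2 at 0.51 (0.0516) and CTNNA1 at 0.38 (0.0973). Depth limits CDH2 in Axin1+ replicates 2 to 4 and DSG2 in the parental libraries, which rest on 11 counts or fewer each. It also limits PKP3 in Axin1+ replicates 3 and 4, with 4 and 8 counts.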
